A study of Mus musculus with 6 samples.

Results

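Collagen leaves the cell only after a series of modifications, and the 10 genes described here encode proteins of those steps. They were taken by symbol from the deposited table of 20199 genes, and all 10 had a row: Serpinh1, P4ha1, P4ha2, P4ha3, Plod1, Plod2, Plod3, Bmp1, Pcolce and Adamts2. The table holds RNA sequencing counts of aortic smooth muscle cells of C57B6 mice that were 12 weeks old, with 3 libraries from wild-type animals and 3 from animals with floxed miR-21 alleles, called knockout here. Both genotypes carried mTmG, a fluorescent reporter of recombination, and Myh11ERT2, a driver built on the smooth muscle myosin gene, so the control libraries carry these transgenes too. The labels used here do not state an inducer, a way of isolating the cells or the number of animals behind the libraries, so p-values measure the spread between these libraries, part of which may be technical.

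New collagen chains enter the endoplasmic reticulum, where prolyl hydroxylases modify proline residues so that the triple helix is stable at body temperature, and lysyl hydroxylases modify lysine residues that later carry sugars and crosslinks. A collagen-specific chaperone then holds the folded helix until it reaches the Golgi apparatus. Outside or at the edge of the cell, proteases cut the propeptides from each end of fibril-forming collagens, which lets the molecules assemble. In the aorta, smooth muscle cells make most of the medial collagen, which limits the stretch of the wall.

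MiR-21 can repress transcripts that hold a match to its seed, so the sequences were examined first. The mature miRNA, with its seed (bases 2 to 8) in capitals, and the match found in P4ha1, with the matching bases in capitals, were as follows, the former from RefSeq (GRCm38.p6, chromosome 11, minus strand, 86584120 to 86584141) and the latter from the annotated GENCODE transcript.
mmu-miR-21a-5p: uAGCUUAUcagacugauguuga
P4ha1 site: ctcccttgggATAAGCTtcggggaatt
When the longest 3′ UTR annotated for a gene was searched, a match to ATAAGCT or TAAGCTA was present in 1 of the 10 genes, P4ha1, at base 1035 of 2230. Over 11009 tested protein-coding genes with such a UTR, 12.0% held a match. For the other 9 genes the UTRs searched ran from 60 bases in Pcolce to 3544 bases in Adamts2 and held neither sequence. A match describes letters only, and an action of miR-21 on P4ha1 was not tested.

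In the libraries as a whole, smooth muscle markers were abundant, and markers of macrophages, endothelium and adipocytes were low beside them. Adventitial fibroblast markers are given below with the results they touch. Acta2, the smooth muscle actin gene, took 1.94% to 2.49% of the counts of each library and Myh11 0.644% to 1.13%. Summed over 9 macrophage markers the level was 2.62 to 10.3 CPM (counts per 1000000, scaled by TMM factors) per library, with Ptprc, the pan-leukocyte gene, at 0 in wild-type replicates 1 and 2. The 10 endothelial markers summed to 86.7 to 94.7 CPM, most of it from Pecam1 and Eng. Of 7 adipocyte markers listed, 2 had a row, Fabp4 and Lipe, which summed to 46.6 to 79.1 CPM, most of it from Fabp4. Adipoq, Plin1, Cidec, Lep and Cfd had no row, so their levels are not known. Library totals ran from 17123748 to 28610649 counts. Wild-type replicate 1 stood apart on the first principal component, at −58.1 against 1.53 to 27.3 in the other libraries.

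Serpinh1, the collagen chaperone of the endoplasmic reticulum, was the most abundant of the 10 genes and was lower in every knockout library. The gene lies on the minus strand of chromosome 7 from 99345376 to 99353239 (mm10). Its level was 1453, 1492 and 1469 CPM in wild-type replicates 1, 2 and 3, and 1235, 928 and 1106 CPM in knockout replicates 1, 2 and 3. The wild-type libraries lay close together, the knockout libraries were spread more widely, and the groups did not overlap. The log2 fold change was −0.43 ± 0.14 (SE, n = 3 per genotype), with a 95% interval from −0.74 to −0.13. Its edgeR quasi-likelihood p was 0.0111, and after Benjamini-Hochberg adjustment over all 15185 genes tested it was 0.709, so the difference did not pass the threshold of 0.05. Leaving out 1 library at a time gave −0.53 to −0.33, the weakest without knockout replicate 2, the lowest library.

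Serpinh1 was then set beside the transcripts of its main clients, since a ratio within a library does not depend on how libraries are scaled. Per 100 counts of Col1a1, Col1a2 and Col3a1, the chains of collagens I and III, Serpinh1 had 17.5, 16.9 and 15.5 counts in the wild-type libraries, taken as replicates 1 to 3. The knockout libraries had 14.6, 12.97 and 16.2 in the same order. Knockout replicate 3 lay among the wild-type values, so the groups overlapped. On the log2 scale the ratio differed by −0.19 (2-sided exact permutation test, p = 0.2, where 3 against 3 cannot go below 0.1). The chains themselves had lower means in the knockout: Col1a1 was at 2153 ± 201 and 1722 ± 149 CPM (SD; log2 fold change −0.32), Col1a2 at 2966 ± 88.6 and 2537 ± 217 CPM (−0.23) and Col3a1 at −0.22, none past the threshold.

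**Figure D1:**
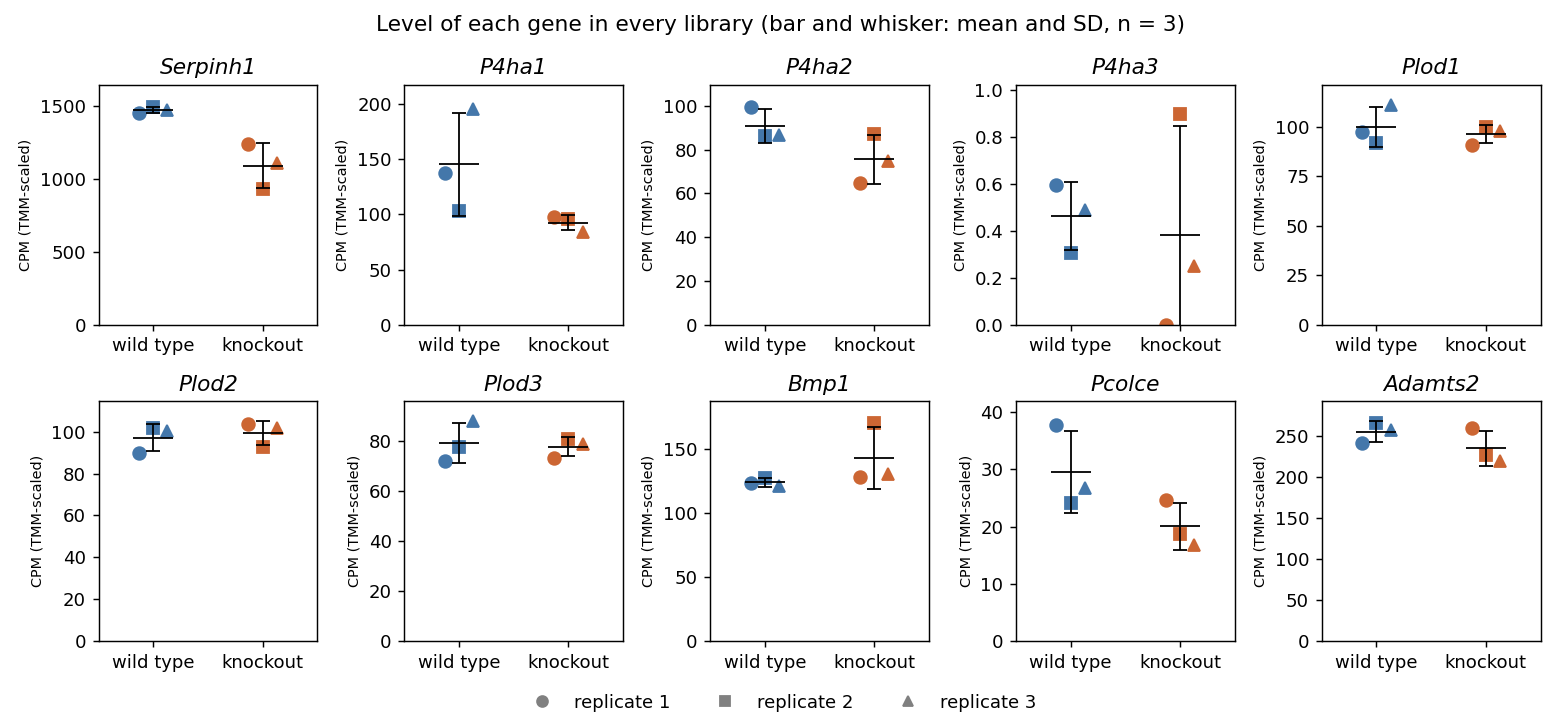
Level of each of the 10 genes in CPM, scaled by TMM factors, in wild-type (blue) and knockout (orange) libraries; symbols are replicates, and the bar and whiskers are the mean and SD of 3 libraries. Serpinh1 and P4ha1 lie lower in all 3 knockout libraries than in any wild-type library, the wild-type libraries of P4ha1 range from 103 to 196 CPM, and the 3 Plod genes overlap between the genotypes.

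The prolyl 4-hydroxylase enzyme joins catalytic alpha subunits, encoded by P4ha1, P4ha2 and P4ha3, to beta subunits encoded by P4hb. P4ha1 (chromosome 10, plus strand, 59323296 to 59373304) is the main alpha subunit gene of most tissues. Its level was 138, 103 and 196 CPM in wild-type replicates 1, 2 and 3, against 97.2, 95.6 and 84.4 CPM in knockout replicates 1, 2 and 3. The groups did not overlap, but wild-type replicate 2 lay just above knockout replicate 1, and wild-type replicate 3 was the highest by far. The log2 fold change was −0.65 ± 0.21, with a 95% interval from −1.13 to −0.18 and an edgeR adjusted p of 0.731. Without wild-type replicate 3 it was −0.38, and without wild-type replicate 2 it was −0.85.

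P4ha2, the second alpha subunit, lies on chromosome 11 (plus strand, 54100095 to 54131665). It was at 99.8, 86.2 and 86.6 CPM in the wild-type libraries, against 64.8, 86.98 and 75.03 CPM for the knockout (replicates 1 to 3). Knockout replicate 2 lay above 2 wild-type libraries, so the groups overlapped (log2 fold change −0.26 ± 0.14, edgeR adjusted p = 0.778; −0.16 without knockout replicate 1). P4ha3 (chromosome 7, 100285520 to 100319699) was close to undetected, with 10, 6 and 14 counts in the 3 wild-type libraries and 0, 20 and 7 in knockout replicates 1, 2 and 3. The 0 counts of knockout replicate 1 allow a level of up to 0.171 CPM, by the limit of 3 counts, which covers counting error only. No direction can be read for P4ha3, whose log2 fold change of −0.23 had a 95% interval from −2.18 to 1.71.

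The balance between the alpha subunits moved with single libraries. P4ha1 made up 57.8%, 54.3% and 69.2% of the P4ha counts in the wild-type libraries (replicates 1 to 3). The knockout libraries had 60.0%, 52.1% and 52.9%. The groups overlapped, and the difference of −5.44 percentage points (2-sided exact permutation test, p = 0.5) became −1.06 points without wild-type replicate 3. Per kilobase of exon the P4ha1 share was 69.6% ± 6.78 in wild type and 64.8% ± 4.08 in knockout (SD, n = 3). P4hb, whose product also serves as a general disulfide isomerase, averaged 721 ± 48.5 CPM in the wild-type libraries and 724 ± 34.4 CPM in the others. Its log2 fold change of 0.01 ± 0.12 had a 95% interval from −0.26 to 0.27.

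The lysyl hydroxylase genes had the closest levels in the genotypes. Plod2 encodes the enzyme that modifies the telopeptides, the short ends of collagen from which stable crosslinks form. It lies on chromosome 9 (plus strand, 92542223 to 92608428) and was at 89.8, 102 and 100 CPM in wild-type and 104, 92.8 and 102 CPM in knockout replicates 1, 2 and 3. Plod1 (chromosome 4, 147909753 to 147936767), whose enzyme modifies the helical part, was at 97.1, 91.5 and 111 CPM and at 90.9, 99.6 and 97.6 CPM. Plod3 (chromosome 5, 136987019 to 136996648), whose enzyme also transfers sugars, was at 72.3, 78.0 and 88.0 CPM and at 73.5, 81.0 and 79.1 CPM.

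The groups overlapped for all 3 Plod genes, with log2 fold changes of 0.03 for Plod2, −0.06 for Plod1 and −0.03 for Plod3. Their 95% intervals ran from −0.22 to 0.28, from −0.32 to 0.21 and from −0.29 to 0.24, and edgeR adjusted p-values were 0.952, 0.911 and 0.958. The sign of each turned when 1 library was left out, and that of Plod3 also with library totals as the scale (0.0101). Plod2 made up 35.2% ± 2.07 of the Plod counts in wild type and 36.4% ± 2.36 in knockout (SD, n = 3; 2-sided exact permutation test, p = 0.6). The deposited counts of Plod2 and Plod3 were not whole numbers in 5 of 6 libraries (beyond 0.05 of one). Those of Serpinh1 were not whole in 4 of 6 libraries, and those of P4ha1 and Bmp1 in 1 of 6. Part of the reads may have been shared out between features, but the counting tool is not given. On the other strand the deposited span of Plod3 overlaps that of Znhit1 by 1003 bases and that of Plod2 overlaps Gm38391 by 647 bases. The overlaps and the values that are not whole make the counts of Plod3 and Plod2 less certain. The latter holds for Serpinh1 too. The span of Adamts2 overlaps Gm12198 by 365 bases, also on the other strand. Gm12198 held 9 to 19 counts per library, against 4061 to 7366 for Adamts2.

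Among the genes of propeptide removal, Bmp1 and Pcolce pointed in opposite directions. Bmp1 (chromosome 14, minus strand, 70474558 to 70520234) encodes the protease that removes the C-propeptide. It was at 124, 128 and 121 CPM in wild-type and 128, 171 and 130 CPM in knockout replicates 1, 2 and 3. The groups did not overlap, yet wild-type replicate 2 and knockout replicate 1 were nearly equal and knockout replicate 2 stood above the rest. The log2 fold change was 0.20 ± 0.14 (95% interval −0.10 to 0.51, edgeR adjusted p = 0.778), and 0.06 without knockout replicate 2.

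Pcolce (chromosome 5, minus strand, 137605103 to 137613784) encodes the glycoprotein that binds the C-propeptide and enhances its cleavage by Bmp1. Its level was 37.7, 24.2 and 26.8 CPM in wild-type and 24.6, 18.8 and 16.8 CPM in knockout replicates 1, 2 and 3. Wild-type replicate 1 was the highest library, and knockout replicate 1 lay just above wild-type replicate 2, so the groups overlapped. The log2 fold change was −0.56 ± 0.20 (95% interval −1.02 to −0.10, edgeR adjusted p = 0.775). Without wild-type replicate 1 it was −0.35. Its span overlaps those of Fbxo24 and Gm36266, which held at most 9 and 14 counts in any library, against 419 to 766 for Pcolce.

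Adamts2 (chromosome 11, plus strand, 50602084 to 50807573) encodes the protease that removes the N-propeptide. It was at 241, 266 and 258 CPM in wild-type and 259, 227 and 219 CPM in knockout replicates 1, 2 and 3. The groups overlapped through knockout replicate 1 (log2 fold change −0.12 ± 0.12, edgeR adjusted p = 0.817).

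**Figure D2:**
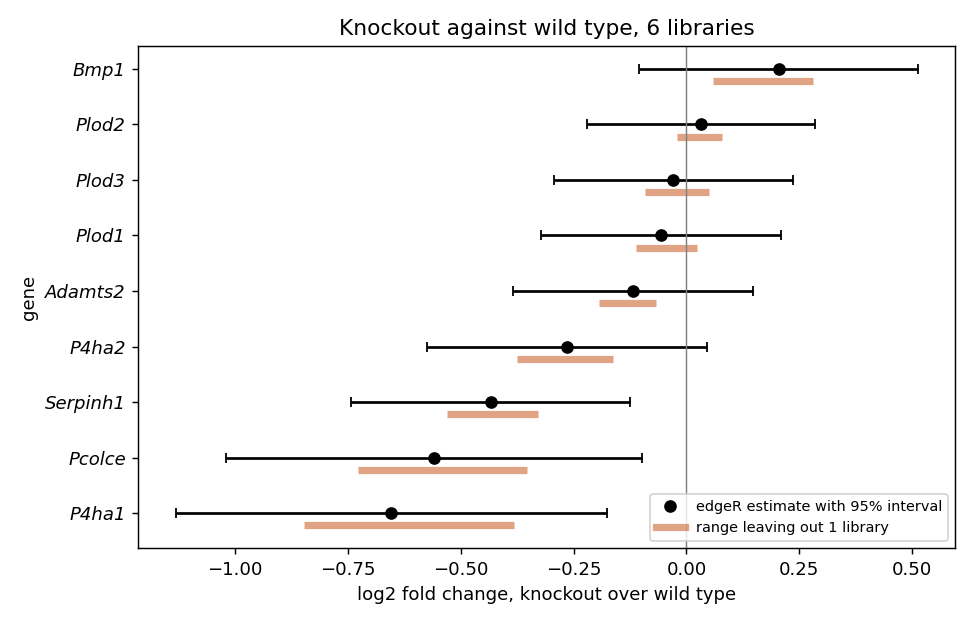
Log2 fold change of knockout over wild type for 9 of the 10 genes (P4ha3, at 0 to 20 counts, is not drawn); points and whiskers are the edgeR estimate with its unadjusted 95% interval from 6 libraries, and orange bars the range of the estimate when 1 library is left out. The intervals of P4ha1, Pcolce and Serpinh1 lie below 0, and those of the other genes span it.

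Over the 10 genes, the fitted mean was below wild type in the knockout for 8 and above it for 2, where 50.1% of all genes tested were lower. The 8 include P4ha3, for which no direction can be read. The signs of Plod1, Plod2 and Plod3 turned when 1 library was left out. The median log2 fold change of the 10 genes was −0.18, against −0.00078 over all genes tested. It was −0.07 without knockout replicate 3 and −0.09 without knockout replicate 1. Without knockout replicate 2, P4ha3 did not pass the filter, and the median of the remaining genes was −0.09, so that value is not over the same genes. In edgeR 0 of 10 passed over all genes, and 0 of 15185 genes did (0%). DESeq2 called 69 genes (0.454%) and 0 of the 10, with adjusted p-values of 0.219 for Serpinh1 and 0.275 for P4ha1, and limma voom called 0 genes (0%). At an unadjusted p under 0.05, edgeR listed 3 of the 10 as lower, P4ha1, Pcolce and Serpinh1 (background 3.44%), and 0 as higher (background 2.85%). The count of 3 fell to 2 without knockout replicate 2, where P4ha1 alone of the 3 stayed under 0.05 and P4ha2 came in, and to 1, Serpinh1, without knockout replicate 3. The groups lay apart with the knockout lower for Serpinh1 and P4ha1 (background 7.57%), and with the knockout higher for Bmp1 (background 6.95%).

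The 10 genes did not vary as one group across the 6 libraries. Of 45 pairs, 27 had a positive Pearson r of log2 CPM, with a median of 0.12. The libraries share their depth and genotype, and these are descriptions over 6 points. Serpinh1 and Bmp1 ran opposite to each other (r = −0.86), with knockout replicate 2 the lowest for one and the highest for the other. The mean of the centred log2 CPM over the 10 genes was 0.18, 0.01 and 0.21 in the wild-type libraries, against −0.28, 0.06 and −0.17 for the knockout (replicates 1 to 3), so knockout replicate 2 lay among the wild-type libraries. That mean weights P4ha3 like the others, and P4ha3 was at 0 in knockout replicate 1 and highest in knockout replicate 2.

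Levels were compared between the genes per kilobase of exon, with lengths from an annotation of another build. In wild type Serpinh1 stood at 604 ± 8.03 CPM per kilobase, above P4ha1 at 35.3 ± 11.4, Bmp1 at 29.9 ± 0.824, Adamts2 at 27.3 ± 1.35 and Plod2 at 23.2 ± 1.53 (SD, n = 3). The wild-type libraries of P4ha1 ran from 24.95 to 47.5 CPM per kilobase and overlapped those of Bmp1 and Adamts2, so their order is not settled. Below them came Plod3 at 17.6 ± 1.77, Plod1 at 14.8 ± 1.48 and P4ha2 at 14.6 ± 1.24 CPM per kilobase, neighbours that overlapped. Pcolce at 7.73 ± 1.88 and P4ha3 at 0.152 ± 0.0482 CPM per kilobase were the lowest. In the knockout Serpinh1 was at 447 ± 63.3 and Bmp1 at 34.5 ± 5.79 CPM per kilobase, with P4ha1 at 22.5 ± 1.69. P4hb, at 252 ± 16.9 CPM per kilobase in wild type, exceeded each of its alpha partners in every library.

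**Figure D3:**
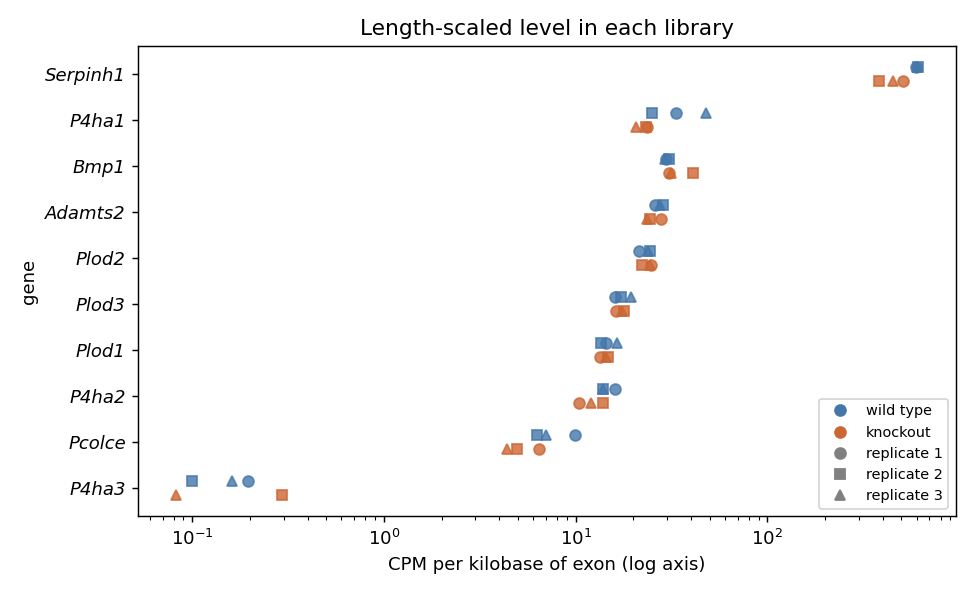
Level of each gene in CPM per kilobase of exon on a log axis, in each wild-type (blue) and knockout (orange) library; symbols are replicates, and the library with 0 counts of P4ha3 is not drawn. Serpinh1 lies far above the other genes at 381 to 613, and P4ha3 lies below 0.3 in all libraries drawn.

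The partners of these proteins were listed next. Fitted means were above wild type for 7 and below it for 11 of the 18 partners tested, of 23 listed (median log2 fold change −0.06), and 0 passed in either direction. The genes of the prolyl 3-hydroxylation complex had fitted means below wild type, with groups that overlapped. P3h1 was at −0.09 ± 0.13, Crtap, its scaffold, at −0.13 ± 0.12 and Ppib, the cyclophilin that turns proline bonds, at −0.18 ± 0.13. P3h2, a prolyl 3-hydroxylase of basement membrane collagen, had the smallest p of the list, at 88.1 ± 22.7 and 116 ± 8.30 CPM (log2 fold change 0.40 ± 0.18, edgeR adjusted p = 0.778). Its wild-type replicate 1 was the lowest library, at 63.8 CPM. Fkbp10, a collagen chaperone and proline isomerase, was at −0.06, and Colgalt1, which adds galactose to hydroxylysine, at −0.03. Creb3l1, a transcription factor that drives collagen secretion, was at −0.25, P3h3 at −0.16 and Adamts3, a second N-propeptide protease, at −0.38 with under 2 CPM.

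The 18 collagen chains tested split evenly, 9 above and 9 below wild type (median −0.02), and 0 passed. The knockout libraries lay below every wild-type library for 2 of the 18 (background 7.57%), Col1a1 and Col1a2. Col8a1, a network collagen of the vessel wall, had the lowest value (16.04 ± 5.30 and 8.09 ± 3.17 CPM, log2 fold change −1.002) and Col12a1 was at −0.36. Of 13 crosslinking enzymes and other proteins cut by Bmp1, 6 were higher and 7 lower (median −0.0035), and 0 passed. Lox, the lysyl oxidase that acts on the hydroxylated lysines and is itself activated by Bmp1, was at 521 ± 111 and 478 ± 44.2 CPM (−0.13). Fmod, a small proteoglycan that binds fibrils, was at 18.9 ± 1.51 and 12.4 ± 3.86 CPM (−0.61), Loxl1 at −0.30, Tgm2 at −0.21 and Ltbp1 at 0.26.

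Serpinh1 and P4hb reside with the general chaperones of the endoplasmic reticulum. The list of these also held Xbp1, Atf4 and Ddit3, which encode transcription factors and not chaperones. Of the 17 genes of the list, 16 had a fitted mean below wild type (median −0.26, 0 passed). The knockout libraries lay below every wild-type library for 5 of the 17 (background 7.57%) and above for 0 (background 6.95%). In edgeR, 6 of the 17 were lower at an unadjusted p under 0.05 (background 3.44%). The summed level of the list was 4448, 4006 and 5120 CPM in wild-type and 3472, 3896 and 4140 CPM in knockout replicates 1, 2 and 3. The groups overlapped for this sum, with knockout replicate 3 above wild-type replicate 2. Wild-type replicate 3 was the highest library for this sum, as it was for P4ha1, while Serpinh1 was about level over the wild-type libraries. The genes with the smallest p there were Creld2 (−0.75), Manf (−0.81), Dnajb11 (−0.39) and Xbp1 (−0.40), the transcription factor of the unfolded protein response. The part of these genes in the values of Serpinh1 and P4ha1 was not tested.

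P4ha1, P4ha2, Plod1 and Plod2 are known targets of the hypoxia-inducible factor, so other targets were listed beside them. Fitted means lay above wild type for 13 and below it for 7 of the 20 tested (median 0.07), and 0 passed. The knockout libraries lay above every wild-type library for 3 of the 20 (background 6.95%), Kdm3a (0.47), Pdk1 (0.47) and Mxi1 (0.31). They lay below for 2 (background 7.57%), the glycolytic genes Ldha (−0.21) and Pgk1 (−0.18). Other glycolytic genes of the list had groups that overlapped, with Eno1 at 0.46, Aldoa at −0.16 and Hk2 at −0.08. These glycolytic genes were named after their values were seen. Adm was at −0.42 with groups that overlapped. The part of hypoxia signalling in the values of P4ha1 was not tested. Of 12 TGF-beta response genes, 5 were higher and 7 lower (median −0.14, 0 passed), with Ctgf at −0.66, Cyr61 at −0.60, Ltbp2 at 0.32 and Skil at 0.30. Of 7 genes of vitamin C and iron supply, the cofactors of all hydroxylases here, 3 were higher and 4 lower (median −0.05, 0 passed). Slc2a3 (−0.56), a glucose transporter that also carries oxidised vitamin C, and Slc40a1 (0.72), the iron exporter, had the smallest p but stood under 6 CPM, while Slc11a2 was at 0.16 and Ftl1 at −0.17.

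**Figure D4:**
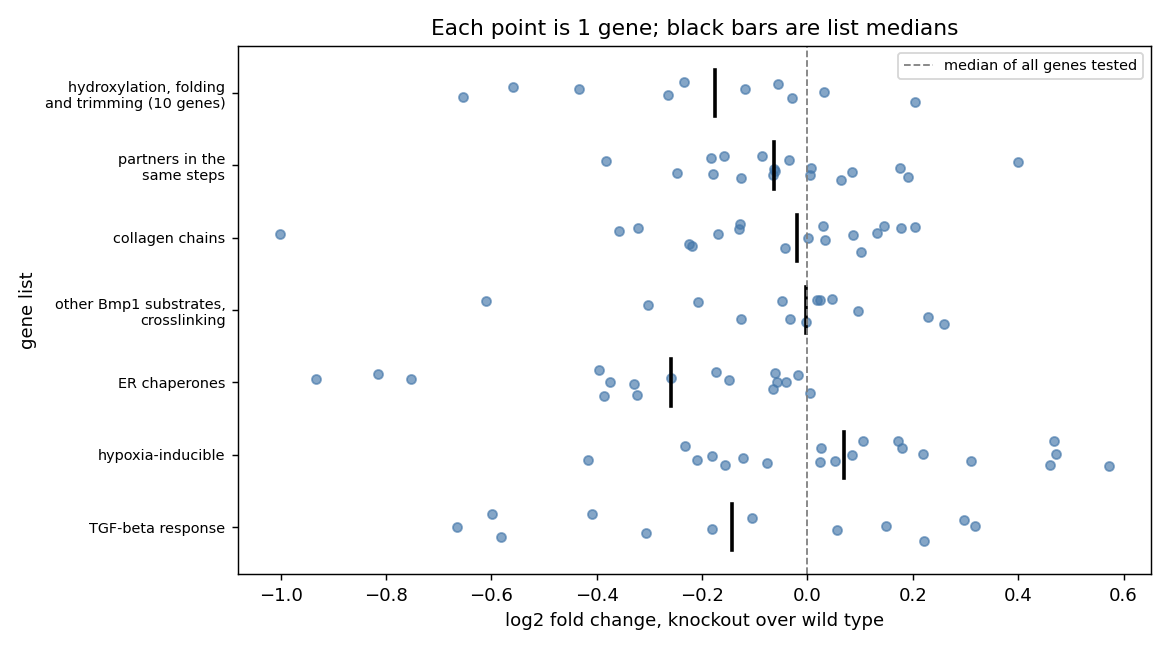
Log2 fold change of knockout over wild type for each tested gene (points) in 7 gene lists, with the median of each list (black bar) and of all genes tested (dashed line); the vertical scatter within a list has no meaning. The medians are −0.18 for the 10 genes, −0.06 for their partners, −0.02 for collagen chains, −0.26 for the chaperones of the endoplasmic reticulum (ER) and 0.07 for hypoxia-inducible genes. The ER list includes the transcription factor genes Xbp1, Atf4 and Ddit3.

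Fibroblasts also make these proteins. The 13 adventitial fibroblast markers summed to 1658, 1626 and 1621 CPM in wild-type and 1542, 1602 and 1440 CPM in knockout replicates 1, 2 and 3. Each knockout sum lay below every wild-type sum. Most of the sum came from Gsn, whose groups overlapped (log2 fold change −0.03), and from Mfap5. Of the 13, 1 lay apart with the knockout lower (background 7.57%) and 0 with it higher (background 6.95%). That gene was Mfap5, at 286, 212 and 228 CPM in wild-type and 168, 157 and 171 CPM in knockout replicates 1, 2 and 3. Means were above wild type for 5 and below it for 8 of the 13 (median −0.03), 0 passed, and none was at 0 in any library. Pdgfra, the most widely used of them, was at 11.8 ± 6.79 and 15.1 ± 4.06 CPM. The markers with the smallest p were Mfap5 (log2 fold change −0.55), Cd34 (−0.33), Scara5 (−0.43) and Clec3b (−0.53). The part of fibroblasts in the values of the 10 genes was not tested. In such bulk libraries fewer cells of a type and less RNA per cell cannot be told apart.

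The promoters of Serpinh1 and P4ha1 are shown, the 2 of the 10 genes that lay apart and lower in the knockout. They run from 250 bases before to 50 bases after the RefSeq start (GRCm38.p6), each on its own strand. Capitals mark the hypoxia response core, ACGTG or GCGTG on either strand.
Serpinh1, chr7:99353190-99353489, minus strand: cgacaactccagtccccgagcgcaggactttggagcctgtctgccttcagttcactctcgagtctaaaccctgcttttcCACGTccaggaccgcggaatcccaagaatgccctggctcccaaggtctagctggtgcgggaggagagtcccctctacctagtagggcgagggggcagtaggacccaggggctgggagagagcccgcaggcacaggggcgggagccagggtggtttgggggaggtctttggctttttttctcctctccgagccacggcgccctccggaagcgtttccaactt
P4ha1, chr10:59323046-59323345, plus strand: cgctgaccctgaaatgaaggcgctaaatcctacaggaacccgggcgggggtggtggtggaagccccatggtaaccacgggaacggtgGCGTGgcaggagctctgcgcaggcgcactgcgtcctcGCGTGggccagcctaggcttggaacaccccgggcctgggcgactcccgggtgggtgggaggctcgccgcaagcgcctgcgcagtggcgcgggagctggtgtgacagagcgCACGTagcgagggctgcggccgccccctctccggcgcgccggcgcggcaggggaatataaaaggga
The core began 171 bases before the start in Serpinh1 and 163, 126 and 16 bases before it in P4ha1. Promoter sequences were matched for 8 of the 10 genes (not Plod2 and Bmp1), and 6 of the 8 held the core: Serpinh1, P4ha1, P4ha2, Plod1, Plod3 and Pcolce. It occurred in 43.8% of 32851 promoters. These were all promoters of the reference and were not limited to genes tested here, so the sets compared are unlike. The heat shock core, TTCNNGAA or GAANNTTC on either strand, was in 3 of the 8, P4ha2, Plod1 and Adamts2, against 15.1% of all promoters. In P4ha2 and Plod1, which held both cores, they shared no bases. The heat shock core was added after values were seen, and a match describes letters in the window only.

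Genes with the most similar course over the 6 libraries were taken among 8639 protein-coding genes with a mean of at least 10 CPM. For Serpinh1 they were Atic (Pearson r = 0.997), Mboat7 (0.997), Kitl (0.995), Trappc5 (0.993) and Mesd (0.986). For P4ha1 they were Stip1 (0.969), Adm (0.964), Zmat1 (0.961), Cry1 (0.961) and Adamts8 (0.958). The points share genotype and depth, and the highest of many r over 6 libraries is high by selection. Stip1, a co-chaperone gene, had a log2 fold change of −0.76 and Cry1, a clock repressor gene, of −0.98, while the 5 genes like Serpinh1 lay between −0.33 and −0.07.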

How the data were processed

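Trizol was used on frozen cells to obtain RNA, and the Illumina TruSeq RNA kit to make libraries, per the labels' protocols. STAR 2.6, DESeq2 and mm10 are named in the submitters' processing notes; counting tool and strand setting: not given in the sources used here, so counts of overlapping genes are uncertain. The deposited values are expected counts, not normalized, judged from the table itself: 65.4% lie within 0.01 of a whole number and column totals differ. Columns were matched to samples by the sample description.

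The expected counts were rounded, genes kept with filterByExpr (15185 of 20199), and libraries scaled with TMM. Genotypes were compared with edgeR 4.0.16's quasi-likelihood test (robust=TRUE, R 4.3.3), 2-sided, Benjamini-Hochberg adjusted over all genes tested, threshold 0.05. Standard errors were derived from the F statistic, and 95% intervals use the test's degrees of freedom. Log2 CPM used a prior count of 2. Shares and ratios were compared with exact permutation tests over libraries.

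Alternatives were RLE factors, library totals, no filter, DESeq2 1.42.0, limma 3.58.1 voom, the replicate number as a block, and leaving out each library. All pairs of libraries differed beyond counting noise (chi-square per gene 14.0 to 100). Positions are 1-based on mm10, with 1 subtracted from the deposited stop. Exon lengths and 3′ UTRs of at least 20 bases came from GENCODE vM1 on NCBIM37 by symbol, for lengths and sequence only; miRNA and promoter sequences came from RefSeq. From each list up to 4 genes with the smallest p and a few fixed genes are named. Some further genes are named too, such as Gsn and Adamts3, whose p was larger. The members and lists were chosen with earlier results of these data known.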

Additional observations from a re-analysis of the deposited data

How the results depend on the processing

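Of 193 recomputed values, 182 kept their direction and side of the threshold or moved by less than 1.5 times or the spread between replicates. No setting called any of the 10 genes. Over all genes the count went from 0 in edgeR to 69 in DESeq2, and from 0 to 9 when 1 library was left out (9 without wild-type replicate 1, 1 without wild-type replicate 2, 0 for the other 4). The number of the 10 genes lower at an unadjusted p under 0.05 was 1 to 3 with 1 library left out, and 3 in every other setting; this count was added after seeing the data. Their median log2 fold change ran from −0.20 without wild-type replicate 2 to −0.07 without knockout replicate 3. P4ha3 was not fitted without knockout replicate 2, so the median of that setting leaves it out. The sign turned for genes near 0 or near the detection limit: Plod3 with library totals (0.0101), and, with 1 library left out, Plod3 (−0.0923 to 0.0493), Plod1 (−0.111 to 0.0238, above 0 only without wild-type replicate 3), Plod2 (−0.0213 to 0.0796, below 0 only without wild-type replicate 1) and P4ha3 (−0.449 to 0.282). Serpinh1, P4ha1, P4ha2, Pcolce, Adamts2 and Bmp1 kept their sign in all 12 alternatives each. The cause was not tested. The shares kept their sign when 1 library was left out: P4ha1 −8.53 to −1.06 points, Plod2 0.027 to 2.39 points, and the Serpinh1 to collagen log2 ratio −0.27 to −0.11. Replicate numbers do not pair the libraries by the labels, and deviations of same-numbered libraries correlated at −0.27, −0.18 and −0.08. With the replicate block 0 genes were called, the median of the 10 was −0.20, and 3 of the 10 were again lower at an unadjusted p under 0.05. With 3 libraries per genotype, the 95% interval of Serpinh1 spans −0.74 to −0.13, and P4ha3 is limited by depth.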
